A study of Gallus gallus with 4 samples.

Results

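TRIM and RNF genes encode RING-type ubiquitin ligases and their close relatives. They were chosen by name: every row of the authors' expression table whose single gene symbol begins with TRIM or RNF and a digit. There were 93 such rows among 18973, 28 for TRIM and 65 for RNF, and they carried 91 distinct symbols, because RNF103 and RNF149 each had a second row. The choice used no expression value, though the rule and the role groups below were set with earlier results of these data known. RNA came from breast (pectoralis) muscle at day 28 after hatching, from Ross 708 birds, a modern meat-type broiler, and from Isfahani birds, a native Iranian chicken. Each breed was represented by 2 libraries, each a pool of RNA from 3 birds, so that differences between single birds were not measured; the labels give neither sex nor treatment, and no modified allele or agent. The table holds 1 FPKM value per breed and row (fragments scaled by transcript length and library size, so that levels of different genes can be compared), and its headings call the breeds "Commercial" and "Native". "Native" matches the Isfahani label and "Commercial" was taken as Ross 708, the remaining group. Values per pool were not analysed here, so breed values carry neither SD nor n, and sequencing depth is unknown.

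A RING domain is a zinc-binding fold that brings a ubiquitin-loaded E2 enzyme next to a protein substrate, so that ubiquitin passes to the substrate. The RING protein supplies most of the choice of substrate, and the ubiquitin chain can send that protein to the proteasome or alter its location or activity. TRIM proteins join the RING to B-boxes and a coiled coil, while RNF is a naming series for RING proteins of many otherwise unrelated kinds. In skeletal muscle the best known are the muscle RING finger proteins MuRF1, MuRF2 and MuRF3, encoded by TRIM63, TRIM55 and TRIM54. They sit on the sarcomere and on microtubules, and MuRF1 is induced in wasting muscle of mammals, where it ubiquitinates thick filament proteins.

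No TRIM or RNF row passed the authors' test. Of the 93 rows, 71 were tested by the authors (70 genes, 18 TRIM and 53 RNF rows) and 0 had a deposited q-value at or under 0.05, the threshold for a call used throughout. Across all 11626 tested rows 5.21% were called, made up of 3.07% higher in Ross 708 and 2.14% higher in Isfahani. At a q-value threshold of 0.10 the count was 2, TRIM63 and RNF11, against 7.5% of all tested rows; at 0.01, where 2.73% of all tested rows were called, it is 0 by construction. At an unadjusted deposited p at or under 0.05, 14 of the 71 rows were past the threshold (19.7%), against 17% of all tested rows. Of those 14, 4 had the higher value in Ross 708 (5.63% of the 71) and 10 in Isfahani (14.1% of the 71). The shares of all tested rows were 9.06% and 7.96%. No other test was possible on 1 value per breed, and a q-value above the threshold does not show that the breeds were alike.

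The ratio used is the log2 quotient of Ross 708 FPKM + 1 and Isfahani FPKM + 1, positive where Ross 708 is higher; the added 1 shrinks the ratios of low genes. Tested TRIM and RNF rows ran from -0.99 for TRIM66 to 0.98 for RNF122, none reached 1 in size, and 35 of 71 lay within 0.25 of 0. Among all tested rows 5.2% had a ratio of at least 1 in size. The limit of 1 holds only with the added 1: by the deposited log2 fold change, 3 of 71 rows passed it, TRIM66 (-2.65), TRIM45 (1.28) and RNF122 (1.14), against 11.7% of tested rows above 0 in both breeds. The median was -0.17, with quartiles of -0.39 and 0.06, against a median of -0.03 and quartiles of -0.30 and 0.26 over all tested rows. The value was higher in Ross 708 for 26 rows and higher in Isfahani for 45, so 36.6% were higher in Ross 708, against 46.5% of all tested rows. That split depends on the rows kept and on scaling. Without rows that overlap another row, 41.7% of 48 TRIM and RNF rows and 47.0% of 7966 tested rows were higher in Ross 708. The medians were then -0.12 and -0.03. With ratios centred on the median of tested rows, 40.8% of TRIM and RNF rows and 51.6% of all tested rows were higher in Ross 708. With both breeds brought to the same summed FPKM the shares were 39.4% and 50.7% when the rows of status HIDATA, which marks loci too deep to be estimated, were kept out of the sum, and 22.5% and 36.8% when they were in it. That last sum includes rows with no valid estimate in Isfahani and lowers Ross 708 values by 0.13 on the log2 scale, whereas leaving them out raises Ross 708 values by 0.05.

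**Figure D1:**
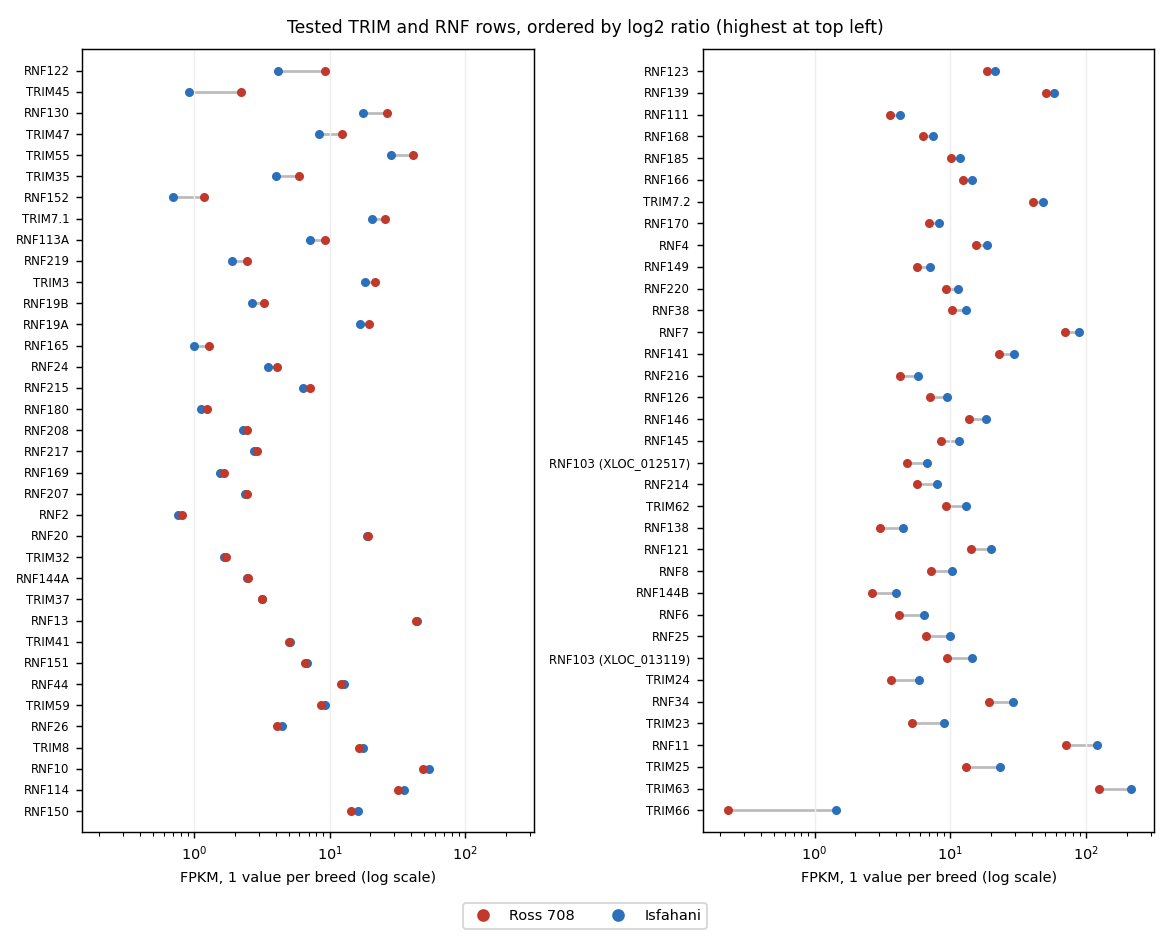
FPKM of the 71 tested TRIM and RNF rows in Ross 708 (red) and Isfahani (blue), on a log axis, 1 value per breed, ordered by log2 ratio from the top of the left panel to the bottom of the right panel. A grey line joins the values of a row, and the longest belongs to the low gene TRIM66.

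The muscle RING finger genes went in opposite directions in value, and neither tested one was called. TRIM63, which encodes MuRF1 (chromosome 23, 3171303 to 3175771 on galGal5, positions as deposited), stood at 125 FPKM in Ross 708 and 217 FPKM in Isfahani, a log2 ratio of -0.79. Its q-value in the authors' deposited table was 0.0828 (unadjusted p = 0.00565), the smallest of any TRIM or RNF row. TRIM55, which encodes MuRF2 (chromosome 2, 114674245 to 114710966), stood at 40.9 FPKM in Ross 708 and 28.3 FPKM in Isfahani, a log2 ratio of 0.52, with a deposited q-value of 0.272. On the FPKM scale TRIM63 was 3.06 times the level of TRIM55 in Ross 708 and 7.66 times in Isfahani; whether that ratio differs between the breeds was not tested. No other row overlaps either locus. TRIM54, which encodes MuRF3, was listed at 0 in both breeds and not tested. Its deposited locus covers 1133 bases of the unplaced scaffold AADN03014104.1, from 246 to 1378, so its level in this tissue was not measured here.

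Other TRIM and RNF genes known from striated muscle showed low and nearly equal values. TRIM32, a gene of human limb-girdle muscular dystrophy, stood at 1.71 FPKM in Ross 708 and 1.68 FPKM in Isfahani. It overlaps ASTN2, which was not tested. RNF207, known for its part in cardiac repolarisation in mammals, stood at 2.48 FPKM in Ross 708 and 2.36 FPKM in Isfahani. Its locus overlaps ICMT, at 6.79 FPKM in Ross 708 and 6.42 FPKM in Isfahani. The deposited q-values of TRIM32 and RNF207 were 0.984 and 0.969. The membrane repair gene TRIM72 had no row under that symbol and was not analysed here.

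By level, the same 5 genes led in both breeds and in the same order: TRIM63, RNF11, RNF7, RNF139 and RNF10. TRIM63 held 12.0% of the summed FPKM of all 93 rows in Ross 708 and 17.0% in Isfahani, and ranked 517 in Ross 708 and 344 in Isfahani among the 11626 tested rows. The 10 highest rows held 52.5% of that sum in Ross 708 and 56.7% in Isfahani. At least 10 FPKM was reached by 28 rows in Ross 708 and 33 in Isfahani. A few abundant genes thus held much of the summed FPKM, and whether other gene sets are as uneven was not tested. The median of tested TRIM and RNF rows was 7.21 FPKM in Ross 708 and 8.93 FPKM in Isfahani. Over all tested rows the median was 6.96 FPKM in Ross 708 and 6.93 FPKM in Isfahani.

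RNF11, a small RING protein that works with NEDD4-family ligases and with the A20 complex (chromosome 8, 22881286 to 22908674), stood at 71.7 FPKM in Ross 708 and 120.2 FPKM in Isfahani, a log2 ratio of -0.74. Its deposited q-value was 0.0945, the second smallest among TRIM and RNF rows. RNF7, the catalytic RING subunit of cullin-5 ligases, stood at 70.7 FPKM in Ross 708 and 89.0 FPKM in Isfahani (log2 ratio -0.33). RBX1, the related RING subunit of most other cullin ligases, is listed here without an RNF symbol and was left out by the rule. RBX1 stood at 277 FPKM in Ross 708 and 230.2 FPKM in Isfahani (log2 ratio 0.26). Neither RNF7 nor RBX1 was called, with deposited q-values of 0.591 and 0.698.

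RNF139, also known as TRC8, is a sterol-responsive ligase of the endoplasmic reticulum, and it stood at 50.8 FPKM in Ross 708 and 57.9 FPKM in Isfahani. RNF145, a relative that also acts on sterol regulation in mammals, stood at 8.53 FPKM in Ross 708 and 11.5 FPKM in Isfahani. RNF10 stood at 48.6 FPKM in Ross 708 and 53.7 FPKM in Isfahani, and its locus overlaps POP5. These 3 genes had deposited q-values between 0.471 and 0.887 and ratios between -0.40 and -0.14. Of the rest of the 10 highest by mean level, TRIM7.2, RNF13, RNF114 and RNF141 had ratios from -0.35 for RNF141 to -0.02 for RNF13, none of them called.

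**Figure D2:**
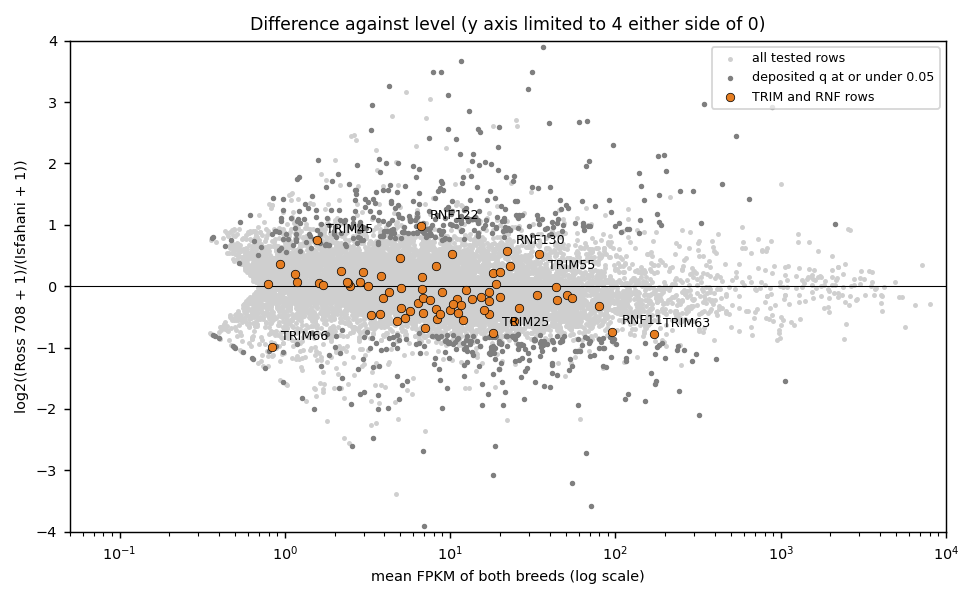
Log2 ratio of Ross 708 over Isfahani (y axis, pseudocount 1 FPKM) against mean FPKM (log x axis) for all tested rows (light grey), rows with a deposited q-value at or under 0.05 (dark grey) and TRIM and RNF rows (orange). TRIM and RNF rows lie between -0.99 and 0.98 and none is among the called rows; 12 tested rows lie outside the y axis.

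The size of the differences that passed the authors' test is best read from their deposited log2 fold changes, which carry no added 1. Among rows above 0 in both breeds with a mean of at least 100 FPKM, the smallest called was 0.87 in size, and TRIM63, the only TRIM or RNF row there, had 0.79. Between 20 and 100 FPKM the smallest called was 0.81, and the largest of 13 TRIM and RNF rows was 0.75, that of RNF11. Between 5 and 20 FPKM it was 0.83, and RNF122 alone was past it among 35 rows. Between 1 and 5 FPKM it was 0.87, and TRIM45 alone was past it among 19 rows. Below 1 FPKM it was 1.15, and TRIM66 alone was past it among 3 rows. In all, 3 of 71 TRIM and RNF rows had a deposited fold change as large as the smallest called at their level. Among all 11573 tested rows above 0 in both breeds, 1715 had such a fold change. Those 1715 hold all 579 called rows by construction, because the called rows set the limits.

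The chromatin and DNA damage group gave 12 tested rows, of which 5 had the higher value in Ross 708 and 7 in Isfahani, with a median ratio of -0.19. Role groups share some genes, so the counts of the groups are not independent. RNF111 and RNF165 are also in the Wnt and growth factor group. RNF26 is in both the antiviral and the organelle membrane group. TRIM24, a cofactor of nuclear receptors, stood at 3.67 FPKM in Ross 708 and 5.88 FPKM in Isfahani (log2 ratio -0.56, deposited q = 0.193). TRIM66, of the same subfamily, stood at 0.229 FPKM in Ross 708 and 1.44 FPKM in Isfahani, the lowest tested level of any TRIM or RNF row in Ross 708, with a deposited q-value of 0.215. Without the added 1 its deposited log2 fold change is -2.65 and the number of fragments behind it is unknown. RNF8 and RNF168, which ubiquitinate histones at DNA breaks, stood at 7.21 and 6.33 FPKM in Ross 708, against 10.3 and 7.41 FPKM in Isfahani. RNF20, which ubiquitinates histone H2B, stood at 19.1 FPKM in Ross 708 and 18.7 FPKM in Isfahani, and the Polycomb gene RNF2 at 0.818 FPKM in Ross 708 and 0.769 FPKM in Isfahani. RNF4, which recognises SUMO chains, stood at 15.6 FPKM in Ross 708 and 18.6 FPKM in Isfahani. None of these was called.

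Genes of antiviral and inflammatory signalling gave 7 tested rows, 1 with the higher value in Ross 708 and 6 in Isfahani (median ratio -0.10). TRIM25 (chromosome 18, 6236768 to 6261401), which in mammals ubiquitinates the RNA sensor RIG-I, stood at 13.1 FPKM in Ross 708 and 23.1 FPKM in Isfahani. Its log2 ratio was -0.77. Its deposited q-value was 0.12, the third smallest here, and its locus overlaps DGKE. TRIM23 stood at 5.18 FPKM in Ross 708 and 8.93 FPKM in Isfahani (log2 ratio -0.68, deposited q = 0.269), and overlaps PPWD1 and TRAPPC13. TRIM35 was the 1 gene with the higher value in Ross 708, at 5.94 FPKM, against 4.03 FPKM in Isfahani (log2 ratio 0.46). In the same libraries the 6 leukocyte markers summed to 2835 FPKM in Ross 708 and 2196 FPKM in Isfahani. Most of that sum was CD74, at 2734 FPKM in Ross 708 and 2138 FPKM in Isfahani. The median log2 ratio of the 6 markers was 0.69, and 1 of them, CSF1R, was called higher in Ross 708. The part of leukocytes in the TRIM values was not tested. In whole muscle, fewer cells of a type and less RNA per cell cannot be told apart. On chromosome 16, which carries the chicken major histocompatibility complex, TRIM7.1 stood at 25.8 FPKM in Ross 708 and 20.4 FPKM in Isfahani. Its neighbour TRIM7.2 stood at 40.8 FPKM in Ross 708 and 47.9 FPKM in Isfahani, and TRIM41 at 5.03 FPKM in Ross 708 and 5.13 FPKM in Isfahani. Near-identical copies can share reads, and TRIM41 shares its deposited locus with TRIM27.1, so these levels are less certain.

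The family also includes membrane-bound ligases. Those with a protease-associated domain in the lumen gave 5 tested rows, 2 with the higher value in Ross 708 and 3 in Isfahani. RNF130, also known as Goliath, stood at 26.6 FPKM in Ross 708 and 17.6 FPKM in Isfahani (log2 ratio 0.57, deposited q = 0.224), the largest difference in that direction among rows above 20 FPKM on average. RNF13 stood at 43.6 FPKM in Ross 708 and 44.3 FPKM in Isfahani. Ligases of the endoplasmic reticulum and other organelle membranes gave 12 tested rows, 4 with the higher value in Ross 708 and 8 in Isfahani (median ratio -0.20). RNF122 had the largest positive ratio of all TRIM and RNF rows with the added 1, while TRIM45 had the largest by the deposited log2 fold change. RNF122 stood at 9.19 FPKM in Ross 708 and 4.17 FPKM in Isfahani (log2 ratio 0.98). It was not called, with a deposited q-value of 0.554, and its locus overlaps DUSP26. RNF103 had a pair of rows at the same locus, at 9.45 FPKM in Ross 708 and 14.4 FPKM in Isfahani on the higher row, and at 4.78 FPKM in Ross 708 and 6.68 FPKM in Isfahani on the lower. Reads may be split between them, and both had the higher value in Isfahani. The higher RNF149 row stood at 5.66 FPKM in Ross 708 and 7.05 FPKM in Isfahani, and the lower one was not tested.

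RING-between-RING ligases, which take ubiquitin onto themselves before passing it on, gave 6 tested rows, 4 with the higher value in Ross 708 and 2 in Isfahani. RNF19A stood at 19.7 FPKM in Ross 708 and 16.8 FPKM in Isfahani, and its paralog RNF19B at 3.28 FPKM in Ross 708 and 2.67 FPKM in Isfahani. The log2 ratios of RNF19A and RNF19B were 0.21 and 0.22. Those of the paralogs RNF144B and RNF144A lay further apart, at -0.46 and 0.008. RNF144B stood at 2.63 FPKM in Ross 708 and 4.01 FPKM in Isfahani (deposited q = 0.258). RNF144A stood at 2.49 FPKM in Ross 708 and 2.47 FPKM in Isfahani. Whether the breed ratios of paralogs differ was not tested. In Wnt and growth factor signalling, 1 of 5 tested rows had the higher value in Ross 708 and 4 in Isfahani. They included RNF146, which marks axin for degradation, at 13.8 FPKM in Ross 708 and 18.4 FPKM in Isfahani, and RNF111, which strengthens TGF-beta signalling, at 3.62 FPKM in Ross 708 and 4.26 FPKM in Isfahani. RNF152, a lysosomal ligase that restrains mTORC1, stood at 1.18 FPKM in Ross 708 and 0.699 FPKM in Isfahani (deposited q = 0.668). RNF123, a subunit of a ligase for the cell cycle inhibitor p27, stood at 18.7 FPKM in Ross 708 and 21.4 FPKM in Isfahani. None of the genes in these groups was called.

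Some tested rows lie outside the groups described above. TRIM45 and TRIM3 stand in a further role list that is not described here. TRIM45 stood at 2.23 FPKM in Ross 708 and 0.915 FPKM in Isfahani, a log2 ratio of 0.75 and a deposited q-value of 0.174. It had the smallest q-value of any TRIM or RNF row higher in Ross 708. TRIM3 stood at 21.6 FPKM in Ross 708 and 18.4 FPKM in Isfahani. TRIM47 stood at 12.4 FPKM in Ross 708 and 8.29 FPKM in Isfahani (log2 ratio 0.53, deposited q = 0.279). RNF34, a ligase for PGC-1alpha in mouse brown fat cells, stood at 19.4 FPKM in Ross 708 and 29.2 FPKM in Isfahani (log2 ratio -0.57, deposited q = 0.379), and overlaps KDM2B. A further 2 rows with an unadjusted p at or under 0.05 were RNF6, at 4.19 FPKM in Ross 708 and 6.45 FPKM in Isfahani, and RNF25, at 6.65 FPKM in Ross 708 and 10.03 FPKM in Isfahani. The other rows without a group ranged in ratio from -0.44 for TRIM62 to 0.32 for RNF113A.

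The 22 rows that were not tested all stood below 1 FPKM, with the highest at 0.445 FPKM in Ross 708 (TRIM14) and 0.713 FPKM in Isfahani (the lower RNF149 row). The rest were RNF14, RNF17, RNF32, RNF41, RNF43, RNF157, RNF182, RNF186, RNF212, RNF222, RNF223, TRIM9, TRIM27.1, TRIM29, TRIM36, TRIM42, TRIM50, TRIM54, TRIM67 and TRIM71. Of all 22, 8 were listed at 0 in both breeds, among them TRIM54 and RNF41, which both lie on unplaced scaffolds. A listed 0 need not mean silence in this table: TNNT3, a fast muscle troponin gene, is listed at 11956 FPKM in Ross 708 and at 0 in Isfahani. Its status is HIDATA, whereas the 22 rows here have the status NOTEST, so TNNT3 does not bear on them directly. COL1A1, a fibroblast marker, has the status NOTEST and is likewise listed at 0 in both breeds. TRIM33, RNF213, TRIM13 and TRIM2 shared rows with another gene and were left out by the rule; none of those 4 shared rows was called.

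**Figure D3:**
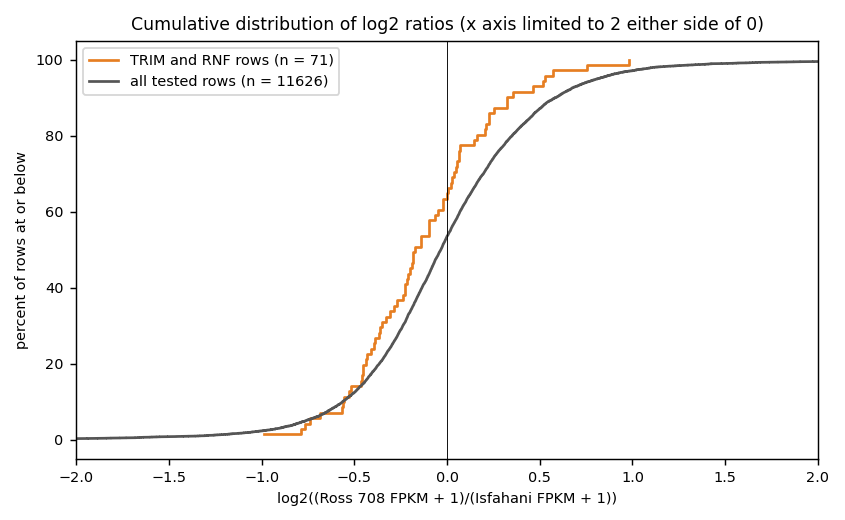
Percent of rows at or below each log2 ratio of Ross 708 over Isfahani, for the 71 tested TRIM and RNF rows (orange) and all 11626 tested rows (dark grey), with the x axis limited to 2 either side of 0. The TRIM and RNF curve, with a median of -0.17, lies left of the other, with a median of -0.03, over the middle of the range, and ends before 1 on either side.

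Other genes of the ubiquitin pathway, in lists drawn up with earlier results of these data known, did include calls. Among 12 tested E2 enzymes listed as working with muscle RING ligases, 1 fell in Ross 708 and 0 rose, against 2.14% and 3.07% of all tested rows. UBE2B, an E2 that is induced in wasting muscle of mammals, stood at 69.3 FPKM in Ross 708 and 162 FPKM in Isfahani. Its log2 ratio was -1.22 and its deposited q-value 0.00245. Whether UBE2B works with the muscle RING finger proteins was not tested. Of the 12, 11 had the lower value in Ross 708 and the median ratio was -0.52, against -0.03 over all tested rows. UBE2D3, of the E2 class that most RING ligases use in the test tube, stood at 119 FPKM in Ross 708 and 177 FPKM in Isfahani, and UBE2G1 at 243 FPKM in Ross 708 and 396 FPKM in Isfahani; neither was called, with deposited q-values of 0.243 and 0.171. The ubiquitin gene RPS27A stood at 1223 FPKM in Ross 708 and 1242 FPKM in Isfahani, and the E1 gene UBA6 at 6.75 FPKM in Ross 708 and 8.13 FPKM in Isfahani.

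Among 24 other muscle ligase genes tested, 6 fell in Ross 708 and 0 rose, with a median ratio of -0.22. Over all tested rows 2.14% were called lower in Ross 708 and 3.07% higher. Each of the 6 belongs to the cullin or HECT ligases by its product: the F-box genes FBXO32 and FBXO30, the adaptors ASB2 and ASB15, the scaffold CUL3 and the HECT ligase WWP1. FBXO32, which encodes atrogin-1, the usual companion of MuRF1 in wasting muscle, stood at 11.4 FPKM in Ross 708 and 25.4 FPKM in Isfahani (log2 ratio -1.10, deposited q = 0.00245). The value of TRIM63 was lower in Ross 708 as well (log2 ratio -0.79) without being called, and whether these genes differ in their response was not tested. CUL3 stood at 67.0 FPKM in Ross 708 and 125 FPKM in Isfahani, a log2 ratio of -0.89 (deposited q = 0.0369). KLHL40, an adaptor of CUL3 in muscle, stood at 39.14 FPKM in Ross 708 and 16.6 FPKM in Isfahani and was not called (deposited q = 0.0777). This list also holds RNF7, described above.

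Of 13 tested genes listed as upstream regulators of the muscle RING finger genes, 3 fell in Ross 708 and 0 rose. Over all tested rows 2.14% fell and 3.07% rose. FOXO3, a transcription factor that activates TRIM63 and FBXO32 in mammals, stood at 11.6 FPKM in Ross 708 and 24.03 FPKM in Isfahani (log2 ratio -0.99). KLF15, which is induced by glucocorticoids and also acts on TRIM63 in mammals, stood at 13.3 FPKM in Ross 708 and 26.1 FPKM in Isfahani (log2 ratio -0.93). The third, FKBP5, is a glucocorticoid-induced cochaperone rather than a known regulator of the muscle RING finger genes. FKBP5 stood at 3.95 FPKM in Ross 708 and 13.3 FPKM in Isfahani (log2 ratio -1.53). The deposited q-values of FOXO3, KLF15 and FKBP5 were 0.0184, 0.0174 and 0.00245. FOXO1 stood at 4.33 FPKM in Ross 708 and 4.31 FPKM in Isfahani, and the glucocorticoid receptor gene NR3C1 at 7.71 FPKM in Ross 708 and 8.84 FPKM in Isfahani, neither called.

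Among 9 tested sarcomere and autophagy partners of the muscle RING finger proteins, 2 rose in Ross 708 and 1 fell, where 3.07% and 2.14% of all tested rows did. Of the 9, 7 had the lower value in Ross 708, called or not, and the median ratio was -0.09. MYBPC3 rose, at 14.2 FPKM in Ross 708 and 3.74 FPKM in Isfahani, as did MYOM3, at 1.86 FPKM in Ross 708 and 0.316 FPKM in Isfahani. MYBPC1 had the lower value in Ross 708, at 6.07 FPKM against 9.87 FPKM in Isfahani, and was not called (deposited q = 0.168). SQSTM1, which binds ubiquitin chains and MuRF2, fell, at 120.03 FPKM in Ross 708 and 239 FPKM in Isfahani. Titin, TTN, which anchors MuRF1 at the M-line, stood at 299 FPKM in Ross 708 and 322 FPKM in Isfahani and was not called. MYL1, TNNI2 and TNNT3 had no valid estimate, and MYL2 and MYL3 were not tested. CKM, MYBPC2, MYLPF and TCAP had no row under those symbols, so much of this list could not be read.

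**Figure D4:**
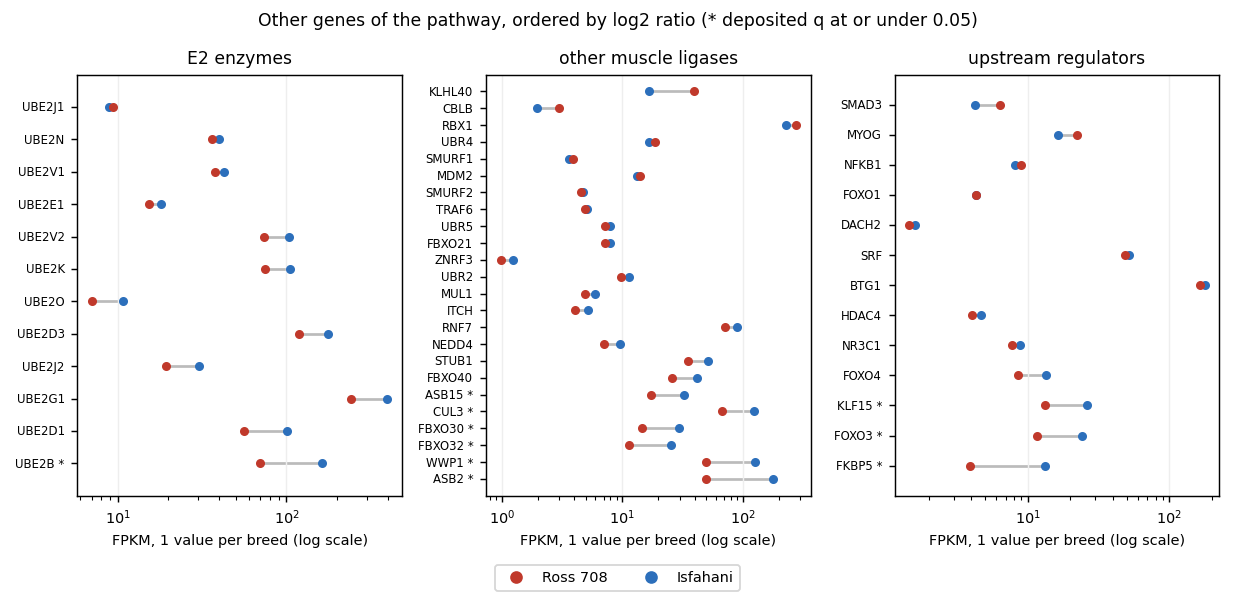
FPKM in Ross 708 (red) and Isfahani (blue) of tested genes listed as E2 enzymes, other muscle ligases and upstream regulators of the muscle RING finger genes. Axes are logarithmic, with 1 value per breed, and genes are ordered by log2 ratio within a panel. Asterisks mark the 10 genes with a deposited q-value at or under 0.05, all of them lower in Ross 708.

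The tissue label could be checked only in part, because few skeletal muscle markers could be read. Of 6 skeletal muscle markers 3 had a row and 2 a valid estimate, ACTN2, a sarcomere gene, at 2559 FPKM in Ross 708 and 2234 FPKM in Isfahani, and MB at 17.2 FPKM in Ross 708 and 19.3 FPKM in Isfahani. Some markers of other cells were called, and so were immediate early genes, which were listed beside the cell type markers as a set of their own. The 6 adipocyte markers summed to 412 FPKM in Ross 708 and 111 FPKM in Isfahani, with 4 called higher in Ross 708, and the 4 immediate early genes with a row summed to 701 FPKM in Ross 708 and 174 FPKM in Isfahani, all 4 called higher in Ross 708. The 5 tested fibroblast markers summed to 2537 FPKM in Ross 708 and 1562 FPKM in Isfahani, with 1 called, LUM, higher in Ross 708; COL1A1 was listed at 0 in both breeds and not tested. The 5 endothelial markers with a row summed to 56.5 FPKM in Ross 708 and 39.8 FPKM in Isfahani, with 0 called. HBAD, the only erythroid marker with a row, was listed at 0 in both breeds. The part of these differences in the TRIM and RNF values was not tested.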

How the data were processed

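The labels' protocols describe Trizol RNA from pooled birds, TruSeq libraries and paired reads of 150 bases. Per the submitters' processing notes, FastQC 0.11.5, Trimmomatic, HISAT2 and Cufflinks 2.2.1 were used with galGal5; annotation and strand setting: not given in the sources used here. Per the file headers, the deposited table has the Cuffdiff layout, with 1 FPKM value per breed, a log2 fold change, the test statistic (a score left unused), the p-value and the q-value. The deposited log2 fold change is Ross 708 over Isfahani. Recomputing Benjamini-Hochberg values over tested rows gave the deposited q-values to within 5.22e-07.

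Called means a deposited q-value at or under 0.05 on a row the authors tested. Ratios were computed with Python 3.11.15 and pandas 2.3.3, with a pseudocount of 1 FPKM. The calculation was tested on simulated data without noise and without low genes, which checks the arithmetic alone. The authors' p-values rest on 2 pools per breed, which the labels do not say came from separate flocks. Overlapping loci make a row less certain, and 23 of 71 tested rows overlap another. Among TRIM and RNF genes given above without that remark, RNF8, RNF111, RNF113A, RNF123, RNF146, RNF149, RNF152, TRIM9, TRIM50 and TRIM62 overlap another row. The pathway genes WWP1, KLHL40, NR3C1 and TTN, named above, also overlap another row. Of the 91 symbols, 88 are in RefSeq (GRCg7b, names alone).

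The members follow a rule on names alone. That rule, the 12 role lists and the 5 pathway lists were set with earlier results of these data known. Named genes are called members, the 5 closest to the threshold, the muscle TRIM genes, the 10 highest by level, the 5 largest and 5 smallest ratios with at least 1 FPKM in both breeds, members on several rows and called pathway genes. Other genes were named after their values were seen, so that each role group has examples. For pathway symbols on several rows, the highest row was used.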

Additional observations from a re-analysis of the deposited data

How the results depend on the processing

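Calls rest on the deposited q-value, so with 0 TRIM and RNF rows called at 0.05 a stricter threshold, a filter, another scaling or another pseudocount could give no other count, and these settings say nothing about stability. At a threshold of 0.10 the count was 2, TRIM63 and RNF11, both higher in Isfahani and both in a role group. Of the 14 rows with an unadjusted p at or under 0.05, 4 were higher in Ross 708 and 10 in Isfahani; 0 and 0 remained with a ratio of at least 1 in size on the scale with 1 FPKM added, and 1 and 1, TRIM45 and TRIM66, with a deposited log2 fold change of that size (chosen after seeing the data). Calls among the other pathway genes numbered 13, and 7 both at 0.01 and with a ratio of at least 1. The median ratio of tested TRIM and RNF rows was -0.17, and -0.29 when both breeds were rescaled to the same sum of all rows, which moved the median of all tested rows to -0.15. Of 22 named members that were tested, TRIM32 turned in sign on that rescaling, and RNF13 on centring and on rescaling without the HIDATA rows (chosen after seeing the data); both lie within 0.1 of 0. No paired analysis was possible because the table holds 1 value per breed, and for the same reason leaving out a replicate was not run. The unknown depth limits the low genes most.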
